A study of Homo sapiens with 9 samples.

Results

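The 40 genes described here are targets and regulators of the transcription factor NRF2 together with genes that handle heme and iron, and they were listed by symbol, with earlier results of these libraries known. Gene identifiers of the expression table, without their version, were matched to the 40 symbols, and genes with at least 1 CPM (reads scaled to a common library total) in at least 3 of the 9 libraries were kept. Libraries are named by group and replicate, as in control 2. This left 34 genes of the 13893 that passed the same filter in the whole table. The question was whether HMOX1, which was higher in the libraries labelled as SNHG5 knock-downs, changed alone or with other genes of the same response.

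NRF2 is held at low levels by KEAP1, an adaptor that presents it to a ubiquitin ligase. Oxidants and electrophiles modify KEAP1, after which NRF2 accumulates, pairs with a small MAF protein and binds antioxidant response elements near genes for glutathione, thioredoxin, NADPH, quinone reduction and ferritin. BACH1, a repressor that is released from DNA when it binds heme, occupies many of the same elements, and HMOX1 is the classical gene under both. In colorectal and other cancers this response is known for protecting cells against oxidants and drugs.

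RNA-seq was performed in HCT116, a widely used line of human colorectal cancer cells, which were reverse transfected with siRNAs at 25 nM by the labels (the study's methods give a higher concentration), with oligo-dT purified RNA read as single ends of 50 bases. There were 3 libraries of each of 3 groups: cells given a negative control siRNA, cells given siRNA A and cells given siRNA B, the last pair both designed against the long non-coding RNA SNHG5. No drug, oxidant or genetic change was added in any group, all cells came from a single line, and the labels give no time after transfection. The methods of the study state a single time for the 3 groups and call the 3 libraries of a group biological replicates. The labels do not tie A and B to the names that the study gives its siRNAs. Both siRNAs were set against the same 3 control libraries, so their differences from control are not independent of each other.

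Library totals ran from 15566530 to 23277549 reads, so that 1 CPM stood for 15.6 to 23.3 reads. SNHG5 itself went against the labels. Its CPM was 35.6, 26.3 and 28.6 in control libraries, 63.9, 50.0 and 61.5 in libraries labelled siRNA A and 47.8, 47.7 and 45.2 in libraries labelled siRNA B, and it was higher in both (log2 fold change 1.29, SE 0.13, adjusted p = 1.86e-05 for A, and 0.83, SE 0.13, adjusted p = 5.90e-04 for B). No direction below is therefore tied to a lower SNHG5 level, and groups are named by the labels of their libraries. The study reports that both of its siRNAs lowered SNHG5 by qRT-PCR, the opposite direction, a measurement that is not used here. In the annotation used here SNHG5 covers 12604 bases of exons, far longer than the spliced isoforms that the study describes. It shares its strand there with ENSG00000271793 and PKMP3. Whether the origin of its reads had a part in the rise was not tested. Of the epithelial markers, 7 of 7 passed the filter (EPCAM, CDH1, KRT8, KRT18, KRT19, CLDN4 and CDX2). Their summed level was 2136 to 2241 CPM in control, 2834 to 3489 CPM in siRNA A and 2411 to 2481 CPM in siRNA B libraries. The keratins KRT8, KRT18 and KRT19 carried most of that sum and rose with siRNA A (log2 fold change 1.06, 1.01 and 1.09), KRT8 also with siRNA B (0.59), while EPCAM fell with siRNA A (−0.55, adjusted p = 0.00121) and CDX2 fell with both (−0.52, adjusted p = 0.00413 for A, and −0.43, adjusted p = 0.0182 for B). Fibroblast, leukocyte and endothelial lists of 5, 5 and 4 genes had 1, 1 and 0 members over the filter, COL1A1 and CD68, with summed levels of at most 19.7 and 1.71 CPM for the first pair of lists. COL1A1 fell with both siRNAs (−0.46, adjusted p = 0.00878, and −0.79, adjusted p = 6.46e-04). COL1A2, DCN, PTPRC, CD3E, PECAM1, CDH5, VWF and KDR were not analysed here. Whether the marker levels had a part in the results was not tested.

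Most of the 34 genes were higher with either siRNA. In the siRNA A libraries 22 of 34 (64.7%) rose, 2 fell and 10 did not pass the test at an adjusted p of 0.05, beside 23.9% of all tested genes that rose and 27.6% that fell. In the siRNA B libraries 19 of 34 (55.9%) rose, 2 fell and 13 did not pass, beside a background of 15.6% higher and 18.3% lower. Over the 34 genes the log2 fold change had a median of 0.55 with siRNA A and 0.46 with siRNA B, beside −0.023 and 0.0043 over all tested genes. A rise of at least 2-fold was called for 6 of the 34 with siRNA A (MAFF, HMOX1, FTL, FTH1, GCLM and PRDX1) and for 6 with siRNA B (MAFF, SQSTM1, HMOX1, FTL, FTH1 and GCLM). Among all tested genes such rises made up 3.12% and 1.16%. Fold changes are given throughout on the scale log2(TMM-scaled CPM + 1), where TMM is a scaling between libraries by the trimmed mean of M values, and they understate the change of genes with low values. In bulk RNA, fewer cells of one kind and less RNA per cell cannot be told apart.

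The counts depended on that scaling. With library totals alone, the median of all tested genes moved to −0.34 for siRNA A and −0.18 for siRNA B, and rises made up 9.05% and 6.90% of all tested genes while falls made up 47.0% and 29.7%. Of the 34 genes, 14 then rose and 7 fell with siRNA A, and 12 rose and 6 fell with siRNA B. None of the called genes among the 34 changed sign under any of the 18 alternatives that gave a value. AKR1B10 passed the low-value filter only through the siRNA B libraries, and without it the counts were 21 of 33 and 18 of 33 higher.

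**Figure D1:**
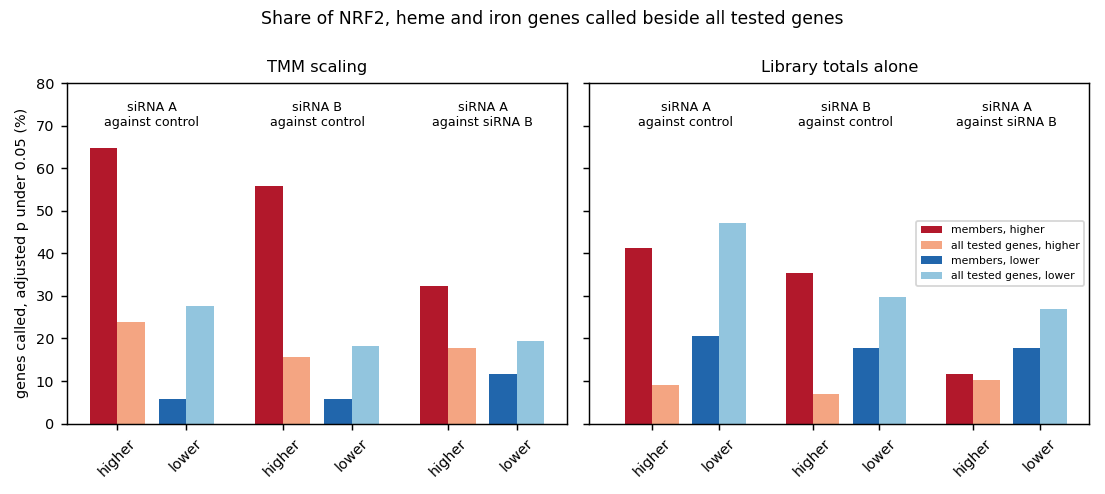
Percentage of genes called higher or lower (y axis, adjusted p under 0.05) for the 34 NRF2, heme and iron genes (dark bars) and for all 13893 tested genes (pale bars) in each comparison, after TMM scaling (left) and with library totals alone (right). Rises take up 64.7% and 55.9% of the 34 genes against control after TMM scaling, beside 23.9% and 15.6% of all genes, and under library totals alone falls take a larger share in both sets.

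HMOX1 and both ferritin chains were among the genes that rose at least 2-fold with each siRNA. HMOX1, heme oxygenase 1, opens the heme ring and frees its iron. It stood at 94.8, 29.3 and 72.7 CPM in control, at 242, 174 and 164 CPM with siRNA A and at 779, 372 and 651 CPM with siRNA B. The 3 groups did not overlap, control replicate 2 lay lowest of all 9, and siRNA B replicate 2 lay below the other siRNA B libraries. After scaling the means were 57.9 ± 30.2, 218 ± 47.6 and 603 ± 187 CPM (SD, n = 3 each). Relative to control, HMOX1 rose with siRNA A (log2 fold change 2.04, SE 0.37, adjusted p = 8.55e-04) and with siRNA B (3.47, SE 0.37, adjusted p = 5.64e-05). Between the siRNAs, HMOX1 was lower with A (log2 difference −1.43, SE 0.37, adjusted p = 0.0111). Leaving out each library in turn, the HMOX1 log2 fold change ran from 1.52 to 2.38 with siRNA A and from 2.95 to 3.82 with siRNA B, the lowest of each without control replicate 2.

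FTL and FTH1 encode the light and heavy chains of ferritin, the shell that stores iron. FTL stood at 1224, 1025 and 1002 CPM in control, 2666, 2769 and 2123 CPM with siRNA A and 2776, 2174 and 2854 CPM with siRNA B, and rose in both (log2 fold change 1.58, SE 0.16, adjusted p = 1.78e-05 for A, and 1.47, SE 0.16, adjusted p = 5.50e-05 for B). FTH1 stood at 687, 627 and 726 CPM in control, 1469, 1479.7 and 1261 CPM with siRNA A and 1867, 2099 and 1565 CPM with siRNA B, and rose likewise (log2 fold change 1.41, SE 0.15, adjusted p = 2.47e-05 for A, and 1.64, SE 0.15, adjusted p = 1.93e-05 for B). For both chains the lowest siRNA library was above the highest control library. The siRNAs were not told apart for FTH1 (log2 difference of A minus B −0.23, 95% interval −0.56 to 0.095, adjusted p = 0.246) nor for FTL (adjusted p = 0.612, interval −0.23 to 0.45), although FTH1 was called lower with A than with B with library totals alone (−0.39, adjusted p = 0.0347). Ferritin genes have many near-identical pseudogenes, and FTH1 overlaps BEST1 on the other strand, so how reads were assigned between them is uncertain.

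The other 3 heme genes rose with neither siRNA. SLC48A1, which carries heme out of endosomes and lysosomes, stood at 18.1, 19.2 and 16.9 CPM in control, 5.47, 4.63 and 4.51 CPM with siRNA A and 19.0, 13.3 and 18.0 CPM with siRNA B. It fell with siRNA A (log2 fold change −1.37, SE 0.13, adjusted p = 1.35e-05), with no overlap to either of the other groups, and the siRNAs also differed from each other (−1.46, SE 0.13, adjusted p = 2.51e-05). With siRNA B it did not pass (0.09 on the log2 scale, adjusted p = 0.646), and with library totals alone that value was −0.11. BLVRB, a biliverdin and flavin reductase, stood at 39.3, 35.2 and 31.5 CPM in control, 24.1, 21.1 and 18.6 CPM with siRNA A and 21.7, 12.9 and 21.7 CPM with siRNA B. It fell with siRNA B (log2 fold change −0.70, SE 0.17, adjusted p = 0.00914) and did not pass with siRNA A (−0.35, adjusted p = 0.113), although it did with 2 groups per fit (−0.35, adjusted p = 0.0478) and when scaled by library totals alone (−0.71, adjusted p = 0.0054). BLVRA, the main biliverdin reductase, passed with neither siRNA (log2 fold changes −0.12 and −0.15), but was called lower with both under library totals alone (−0.47, adjusted p = 0.00524 for A, and −0.35, adjusted p = 0.0372 for B). In all, 3 of 6 heme and iron genes rose and 1 fell with each siRNA. Among all tested genes 23.9% rose and 27.6% fell with siRNA A, and 15.6% and 18.3% with siRNA B.

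**Figure D2:**
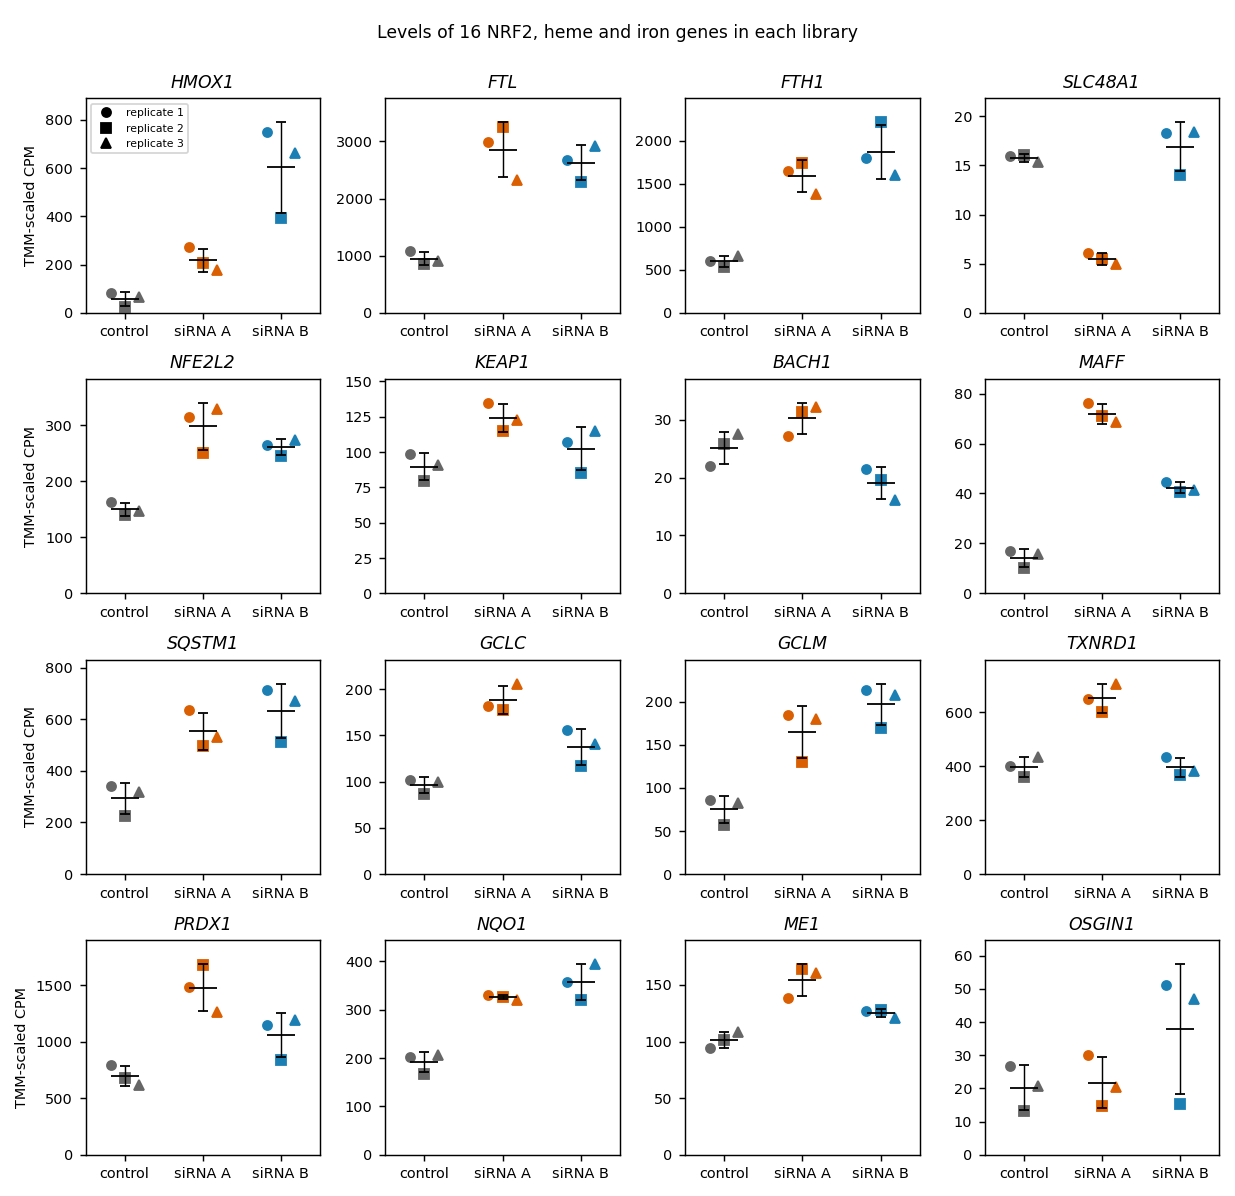
TMM-scaled CPM (y axis, linear from 0) of 16 of the genes in the control, siRNA A and siRNA B libraries. Symbols mark replicates 1, 2 and 3, and the black bars are the mean ± SD of 3 libraries. HMOX1 separates all 3 groups, FTL and FTH1 separate control from both siRNAs, SLC48A1 is low in the siRNA A libraries (5.5 ± 0.594 CPM against 15.8 ± 0.387 CPM in control), and OSGIN1 spreads widely within the siRNA B libraries.

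Stretches upstream of these genes were searched for an antioxidant response element, the sequence through which NRF2 is known to act. The letters TGACTCAGC were searched on both strands of GRCh37 in the 10000 bases before the start of the canonical transcript. They contain TGACTCA, the letters of an AP-1 site, and so do not tell the NRF2 and MAF, BACH1 and AP-1 families apart. The letters occurred upstream of 13 of the 34 genes (38.2%) and of 12.8% of the 13349 tested genes that had a window. Within 1000 bases they occurred for 6 of 34 (17.6%), beside 1.24% of all. The looser TGACNNNGC, with any base at N, occurred upstream of 33 of the 34 genes and of 97.0% of all, and within 1000 bases of 20 of the 34 (58.8%) and 33.99% of all. The list was drawn from known NRF2 targets, so these shares describe it and test nothing.

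HMOX1 (chr22:35776354-35790207, plus strand, GRCh37) had 4 such matches, where 0.142% of all tested genes had 3 or more. They are shown with those of FTH1, FTL, GCLC, NQO1 and ME1 and the nearer of the 2 of SQSTM1. All genes shown were called higher with both siRNAs. Matches of ABCC2, BLVRA, GPX4, GSTP1, PRDX1 and TALDO1 are not shown. Each line has 10 bases of flank on either side in lower case and the 9 searched letters in capitals, read 5′ to 3′ on the strand named. The distance runs from the end of the element nearest to the gene to the gene start used here.
HMOX1, chr22:35768002-35768030, minus strand, 9069 bases upstream: ctcgggaccgTGACTCAGCaggaaaaaca
HMOX1, chr22:35768060-35768088, minus strand, 9011 bases upstream: accgggaccgTGACTCAGCgaaaacagat
HMOX1, chr22:35768089-35768117, minus strand, 8982 bases upstream: ctctagaccgTGACTCAGCgaaaacagac
HMOX1, chr22:35773139-35773167, minus strand, 3932 bases upstream: gaggcactggTGACTCAGCaaaatctagc
FTH1, chr11:61739505-61739533, plus strand, 4409 bases upstream: tgtcccaccgTGACTCAGCactctgctag
FTL, chr19:49467189-49467217, plus strand, 1359 bases upstream: gagctcagcaTGACTCAGCagtcgctgcc
GCLC, chr6:53413037-53413065, plus strand, 3148 bases upstream: cgcctccccgTGACTCAGCgctttgtgcg
NQO1, chr16:69760900-69760928, minus strand, 447 bases upstream: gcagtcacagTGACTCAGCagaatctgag
SQSTM1, chr5:179247543-179247571, minus strand, 344 bases upstream: ggcctggccaTGACTCAGCaatatcctca
ME1, chr6:84140889-84140917, minus strand, 129 bases upstream: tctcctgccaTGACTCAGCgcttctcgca
By the annotation, the 3 distal HMOX1 matches and those of FTH1, FTL and ME1 lay in no gene. The match 3932 bases before HMOX1 lay in an exon of an unnamed lncRNA and that of NQO1 in an exon of the lncRNA NQO1-DT. That of GCLC lay in an intron of a longer GCLC transcript, and the SQSTM1 match shown in an intron of a longer SQSTM1 transcript. A match is a description of the sequence, and no binding was measured in these libraries. Among the 13 genes with the element, TALDO1, GPX4 and ABCC2 rose with siRNA B and did not pass with siRNA A, GSTP1 rose with siRNA A and did not pass with siRNA B, and BLVRA passed with neither.

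**Figure D3:**
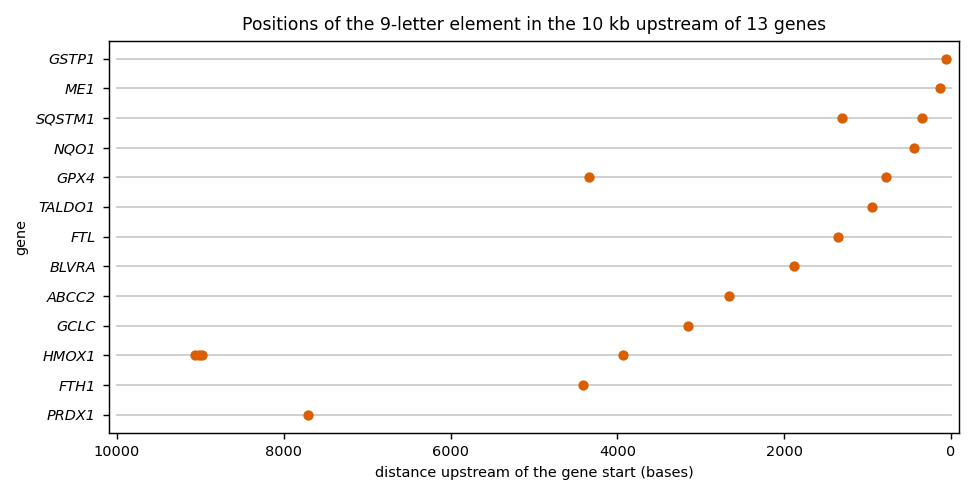
Positions of the 9-letter element upstream of the 13 genes that hold it (x axis, bases before the gene start, running from 10000 on the left to 0 on the right, with 1 line per gene). HMOX1 has 4 matches, of which 3 lie within 9069 to 8982 bases and overlap in the plot, while GSTP1, ME1, SQSTM1, NQO1, GPX4 and TALDO1 have a match within 1000 bases.

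Among the 7 regulators, 5 rose with siRNA A, beside 23.9% of all tested genes. With siRNA B 3 rose and 1 fell, beside 15.6% and 18.3%. NFE2L2, which encodes NRF2, stood at 185, 167 and 162 CPM in control, 282, 213 and 301 CPM with siRNA A and 275, 232 and 268 CPM with siRNA B. It rose in both without overlap to control (log2 fold change 0.98, SE 0.12, adjusted p = 5.67e-05 for A, and 0.80, SE 0.12, adjusted p = 4.19e-04 for B), and the siRNAs did not differ past the threshold (0.18, 95% interval −0.073 to 0.44). NRF2 is regulated mainly as a protein, which was not measured. KEAP1 stood at 112, 94.5 and 100.3 CPM in control, 120.5, 97.5 and 112 CPM with siRNA A and 111, 80.9 and 113 CPM with siRNA B, values that overlap before scaling. After scaling it rose with siRNA A (log2 fold change 0.47, SE 0.13, adjusted p = 0.00934), a call that did not hold with library totals alone (0.10, adjusted p = 0.548), and did not pass with siRNA B (0.19, adjusted p = 0.285), where library totals alone gave −0.023.

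The small MAF proteins pair with NRF2 or BACH1 on DNA and differed from one another. MAFF stood at 19.4, 12.1 and 17.2 CPM in control, 68.2, 60.3 and 62.7 CPM with siRNA A and 46.3, 38.6 and 40.5 CPM with siRNA B. No 2 groups overlapped. It had the largest log2 fold change of the 34 genes with siRNA A (2.29, SE 0.16, adjusted p = 2.12e-06), rose with siRNA B as well (1.53, SE 0.16, adjusted p = 4.42e-05), and was higher with A than with B (0.75, SE 0.16, adjusted p = 0.00329). MAFK rose with siRNA A (log2 fold change 0.46, SE 0.088, adjusted p = 0.00107), a call that library totals alone did not give (0.10, adjusted p = 0.413), and did not pass with siRNA B (−0.11, adjusted p = 0.379), although there it was called lower with library totals alone (−0.32, adjusted p = 0.0288). For MAFK the siRNAs differed from each other (0.57, SE 0.088, adjusted p = 5.30e-04). MAFG did not pass with A (0.33, adjusted p = 0.165, or 0.33, adjusted p = 0.0087 with the replicate number as a block, and −0.037 with library totals alone) or with B (0.44, adjusted p = 0.0888), where DESeq2 on the reads recovered from the CPM gave a call (0.47, adjusted p = 0.0451).

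BACH1, the heme-binding repressor, stood at 25.1, 30.7 and 30.4 CPM in control, 24.3, 26.6 and 29.4 CPM with siRNA A and 22.2, 18.5 and 15.7 CPM with siRNA B. It was lower with siRNA B than in control (log2 fold change −0.39, SE 0.13, adjusted p = 0.0407), although this call was lost when control 2, control 3, siRNA A 3, siRNA B 2 or siRNA B 3 was left out (−0.41 to −0.28, adjusted p = 0.0525 to 0.155), and in a fit of the 2 groups alone (−0.39, adjusted p = 0.0586). It did not pass with siRNA A (0.26, adjusted p = 0.123, or −0.10 with library totals alone). Its difference between the siRNAs was larger, and higher with A (0.65, SE 0.13, adjusted p = 0.00305). SQSTM1 encodes p62, an autophagy receptor that binds KEAP1. It stood at 387, 269 and 349 CPM in control, 567, 422 and 486 CPM with siRNA A and 738, 485 and 658 CPM with siRNA B, and rose in both without overlap (log2 fold change 0.92, SE 0.17, adjusted p = 9.59e-04 for A, and 1.11, SE 0.17, adjusted p = 5.89e-04 for B). The SQSTM1 difference between the siRNAs did not pass (−0.18, 95% interval −0.56 to 0.19).

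Glutathione genes rose in 4 of 5 tested cases with each siRNA, beside 23.9% of all tested genes for A and 15.6% for B. GCLC and GCLM are the catalytic and modifier subunits of the enzyme that makes the first and limiting step of glutathione synthesis. GCLM stood at 98.2, 68.3 and 91.0 CPM in control, 165, 111 and 164 CPM with siRNA A and 221, 161 and 204 CPM with siRNA B, and rose in both (log2 fold change 1.12, SE 0.18, adjusted p = 2.99e-04 for A, and 1.39, SE 0.18, adjusted p = 1.55e-04 for B). GCLC stood at 116, 103 and 110.2 CPM in control, 163, 151 and 188 CPM with siRNA A and 161, 111 and 138 CPM with siRNA B. The siRNA A libraries lay above control for both subunits, while the GCLC values of siRNA B reached into the control range before scaling. GCLC rose with siRNA A (0.97, SE 0.12, adjusted p = 7.81e-05) and also with siRNA B (0.51, SE 0.12, adjusted p = 0.00745), the latter lost with library totals alone (0.30, adjusted p = 0.11). GCLC was higher with A than with B (0.45, SE 0.12, adjusted p = 0.0125), a call lost when siRNA A 3 was left out (0.39, adjusted p = 0.0515) and with library totals alone (0.30, adjusted p = 0.108), whereas GCLM did not differ past the threshold between them (−0.27, 95% interval −0.65 to 0.12).

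GSR, the reductase that regenerates glutathione, rose with both siRNAs (log2 fold change 0.90, adjusted p = 1.28e-04 for A, and 0.63, adjusted p = 0.00235 for B). GSTP1, a glutathione transferase, rose with siRNA A (0.57, adjusted p = 0.0227), a call that library totals alone did not give (0.20, adjusted p = 0.381) and that was lost when control 2, control 3, siRNA A 1 or siRNA A 2 was left out (0.49 to 0.53, adjusted p = 0.0668 to 0.0855), and did not pass with siRNA B (0.22, adjusted p = 0.388). GPX4, the peroxidase of lipid hydroperoxides, rose with siRNA B (0.47, adjusted p = 0.0137), a call that library totals alone did not give (0.25, adjusted p = 0.131) and that was lost when control 2 was left out (0.37, adjusted p = 0.062). With siRNA A it did not pass (−0.14, adjusted p = 0.37), although it was called lower with library totals alone (−0.51, adjusted p = 0.00388). GPX4 was lower with A than with B (−0.61, SE 0.13, adjusted p = 0.00314). GPX2, an intestinal peroxidase, had 1 to 6 reads per library and was not tested.

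All 4 tested thioredoxin and peroxiredoxin genes differed between the siRNAs. With siRNA A, 4 of 4 tested genes rose and with siRNA B 2 of 4, beside 23.9% and 15.6% of all tested genes. Of the same genes, 4 of 4 were higher with A than with B, beside 17.6% of all tested genes that were higher and 19.5% that were lower in that comparison. Of these 4 differences between the siRNAs, that of TXNRD1 held with library totals alone and those of TXN, PRDX1 and PRDX6 did not. TXNRD1, the cytosolic thioredoxin reductase, stood at 454, 428 and 479 CPM in control, 581, 509.6 and 646 CPM with siRNA A and 451, 349 and 375 CPM with siRNA B. It rose with siRNA A (log2 fold change 0.71, SE 0.11, adjusted p = 3.46e-04) without overlap, while for siRNA B the log2 fold change was −0.0067 (95% interval −0.25 to 0.24, adjusted p = 0.97), a value around 0 whose sign changed with DESeq2 size factors (0.0025). TXNRD1 was higher with A than with B (0.72, SE 0.11, adjusted p = 6.09e-04).

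EID3, a gene for a component of the SMC5 and SMC6 complex, lies inside TXNRD1 on the same strand (chr12:104697517-104698983 within chr12:104609557-104744085, GRCh37), so reads of the shared stretch could have been assigned to either. EID3 stood at 2.18, 0.725 and 1.11 CPM in control, 14.2, 20.6 and 11.9 CPM with siRNA A and 13.2, 7.16 and 9.11 CPM with siRNA B. It rose with both siRNAs (log2 fold change 3.10, SE 0.26, adjusted p = 6.09e-06 for A, and 2.33, SE 0.26, adjusted p = 6.81e-05 for B). These levels were far below those of TXNRD1 in CPM, which is not scaled to gene length.

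TXN, the thioredoxin that TXNRD1 reduces, rose with siRNA A (log2 fold change 0.89, adjusted p = 2.37e-04) and also with siRNA B (0.40, adjusted p = 0.0346). The TXN call with siRNA B did not hold with library totals alone (0.19, adjusted p = 0.298) or when control 2, control 3, siRNA B 1 or siRNA B 3 was left out (0.33 to 0.39, adjusted p = 0.0961 to 0.127). PRDX1, a peroxiredoxin that reduces hydrogen peroxide with electrons from thioredoxin, stood at 898, 814 and 677 CPM in control, 1328, 1428 and 1156 CPM with siRNA A and 1184, 793 and 1167 CPM with siRNA B. The siRNA A libraries lay above control, and siRNA B replicate 2 lay within it. PRDX1 rose with siRNA A (1.08, SE 0.16, adjusted p = 2.33e-04) and also with siRNA B (0.59, SE 0.16, adjusted p = 0.0147). The PRDX1 call with siRNA B did not hold with library totals alone (0.38, adjusted p = 0.0877) or when control 3, siRNA B 1 or siRNA B 3 was left out (0.50 to 0.53, adjusted p = 0.0558 to 0.0654). PRDX6, which also reduces phospholipid hydroperoxides, rose with siRNA A (0.61, adjusted p = 6.05e-04), a call that library totals alone did not give (0.24, adjusted p = 0.0862), and did not pass with siRNA B (0.19, adjusted p = 0.188, or −0.021 with library totals alone). SRXN1, the sulfiredoxin that repairs peroxiredoxins, was not analysed here.

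Of the 4 genes grouped under NADPH supply, 2 rose with siRNA A and 3 with siRNA B, beside 23.9% and 15.6% of all tested genes. Only PGD and ME1 among them encode enzymes that make NADPH. TKT, transketolase of the pentose phosphate pathway, rose with both (log2 fold change 0.98, adjusted p = 3.37e-05 for A, and 0.57, adjusted p = 0.00208 for B). ME1, the cytosolic malic enzyme, stood at 107, 121 and 119.9 CPM in control, 124, 139 and 147 CPM with siRNA A and 131, 121 and 119 CPM with siRNA B, where only the siRNA A libraries lay above control before scaling. It rose with siRNA A (0.60, SE 0.10, adjusted p = 4.45e-04) and also with siRNA B (0.31, SE 0.10, adjusted p = 0.033). Neither ME1 call held with library totals alone (0.24, adjusted p = 0.0791 for A, and 0.10, adjusted p = 0.524 for B), and that for B was also lost when control 1, control 2, siRNA B 1, siRNA B 2 or siRNA B 3 was left out (0.25 to 0.33, adjusted p = 0.0568 to 0.11). TALDO1, transaldolase, rose with siRNA B (0.49, adjusted p = 0.00512), a call that library totals alone did not give (0.28, adjusted p = 0.0999). With siRNA A it did not pass (0.25, adjusted p = 0.0721, or 0.25, adjusted p = 0.0406 with the replicate block and −0.11 with library totals alone). TALDO1 was also called there with DESeq2 size factors (0.28, adjusted p = 0.0429) and with DESeq2 on the recovered reads (0.29, adjusted p = 0.0295). PGD, 6-phosphogluconate dehydrogenase, passed with neither siRNA (−0.26, adjusted p = 0.1 for A, and −0.30, adjusted p = 0.0883 for B). With the replicate block PGD was called lower with siRNA A (adjusted p = 0.0241). It was called lower with both siRNAs under library totals alone (−0.63, adjusted p = 0.00196 for A, and −0.51, adjusted p = 0.0125 for B).

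NQO1, the quinone reductase often used as a readout of NRF2, stood at 231, 199 and 227 CPM in control, 295, 278 and 294 CPM with siRNA A and 369, 303 and 386 CPM with siRNA B. All 6 siRNA libraries lay above the 3 control libraries. NQO1 rose with siRNA A (log2 fold change 0.77, SE 0.11, adjusted p = 1.99e-04) and also with siRNA B (0.89, SE 0.11, adjusted p = 1.52e-04), and the siRNAs did not differ past the threshold (−0.12, 95% interval −0.37 to 0.12). AKR1B1, aldose reductase, rose with siRNA A (0.41, adjusted p = 0.0376), a call that library totals alone did not give (0.058, adjusted p = 0.775) and that was lost when control 2, control 3, siRNA A 1 or siRNA A 2 was left out (0.29 to 0.44, adjusted p = 0.0648 to 0.145), and did not pass with siRNA B (−0.16, adjusted p = 0.444). Its relative AKR1B10 was close to the filter, at 6 to 37 reads per library and 0.544, 0.725 and 0.289 CPM in control, 0.856, 0.964 and 0.98 CPM with siRNA A and 1.62, 1.1 and 1.59 CPM with siRNA B. AKR1B10 rose with siRNA A (0.51, adjusted p = 0.0127), a call that library totals alone did not give (0.36, adjusted p = 0.0714) and that was lost when control 3 was left out (0.41, adjusted p = 0.058). It was called higher with siRNA B too (0.76, adjusted p = 0.00226). As AKR1B10 was kept only through its siRNA B values, that call is no separate support for a rise.

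The hydroxysteroid dehydrogenases AKR1C1, AKR1C2 and AKR1C3, near-identical copies whose reads are hard to assign, had 1 to 5, 0 to 3 and 3 to 10 reads per library. CBR1, a carbonyl reductase that overlaps CBR1-AS1 and SETD4, was listed at 0 reads in all 9 libraries. At this depth 3 reads were worth 0.129 to 0.193 CPM, so changes of the AKR1C genes were not detectable. Whether the 0 reads of CBR1 reflect its level or how reads of overlapping genes were assigned was not tested.

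ABCC2 and ABCC3 pump glutathione and glucuronide conjugates out of the cell. ABCC2 rose with siRNA B (log2 fold change 0.70, adjusted p = 0.00209) and did not pass with siRNA A (0.30, adjusted p = 0.0794), where it gave 0.30, adjusted p = 0.0431 with the replicate block, 0.35, adjusted p = 0.0382 with DESeq2 on the recovered reads and −0.061 with library totals alone. ABCC3 fell with siRNA A (−0.49, adjusted p = 0.00745) and did not pass with siRNA B (−0.26, adjusted p = 0.13), although with library totals alone it was called lower there too (−0.46, adjusted p = 0.0218).

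SOD1, the cytosolic superoxide dismutase, rose with siRNA A (log2 fold change 0.53, adjusted p = 0.00233) and also with siRNA B (0.41, adjusted p = 0.0168). Neither SOD1 call held with library totals alone (0.17, adjusted p = 0.252 for A, and 0.20, adjusted p = 0.221 for B), and that for B was also lost when control 2, siRNA B 1 or siRNA B 3 was left out (0.34 to 0.38, adjusted p = 0.0622 to 0.0717). CAT, catalase, passed with neither (−0.12, adjusted p = 0.579 for A, and −0.025, adjusted p = 0.928 for B), and with library totals alone it was called lower with siRNA A (−0.48, adjusted p = 0.0222). OSGIN1, an NRF2 target that inhibits growth, stood at 30.5, 15.6 and 23.0 CPM in control, 26.8, 12.4 and 18.8 CPM with siRNA A and 53.0, 14.5 and 46.1 CPM with siRNA B. In each group replicate 2 was lowest, and the groups overlapped. OSGIN1 passed with neither siRNA (0.093, adjusted p = 0.862 for A, with −0.26 under library totals alone, and 0.75, adjusted p = 0.175 for B).

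**Figure D4:**
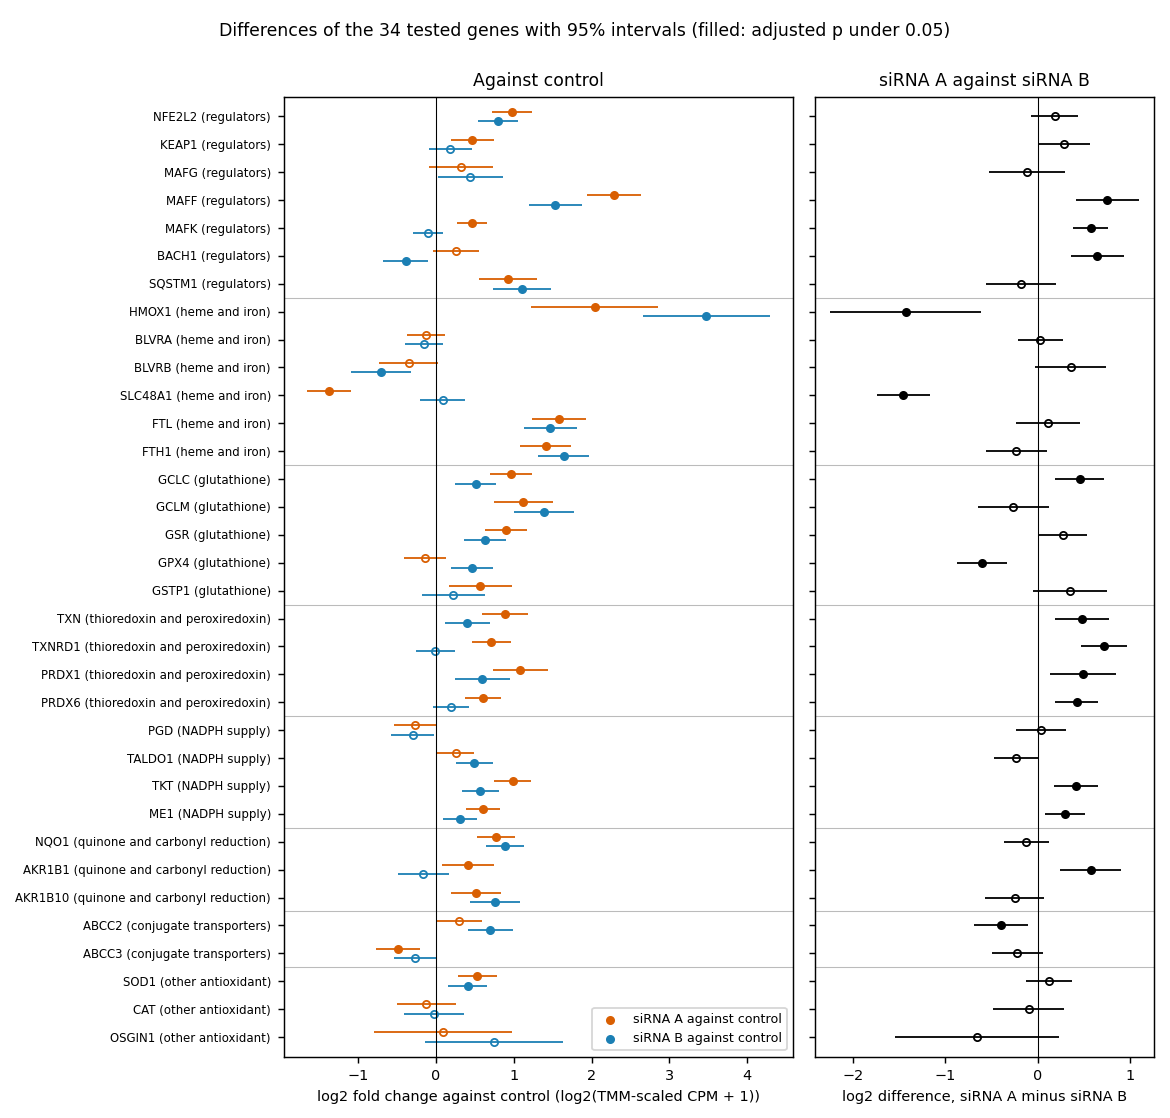
Log2 differences (x axes, log2(TMM-scaled CPM + 1)) of the 34 tested genes, ordered by role, for siRNA A and siRNA B against control (left) and for siRNA A minus siRNA B (right). Points are estimates and bars 95% intervals, and filled points passed an adjusted p of 0.05. HMOX1 reaches 2.04 and 3.47 and MAFF 2.29 and 1.53 against control, while SLC48A1 lies at −1.37 with siRNA A, and HMOX1 and SLC48A1 lie furthest below 0 on the right.

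Set against each other, the siRNAs differed for 15 of the 34 genes. With A, 11 genes were higher (MAFF, MAFK, BACH1, GCLC, TXN, TXNRD1, PRDX1, PRDX6, TKT, ME1 and AKR1B1) and 4 were lower (HMOX1, SLC48A1, GPX4 and ABCC2), or 32.4% and 11.8%, beside 17.6% and 19.5% of all tested genes. The median difference of the 34 genes was 0.12, beside −0.014 over all tested genes. With library totals alone it was −0.038, beside −0.15 over all tested genes. In that run 4 of the 34 were higher and 6 lower, beside 10.2% and 27.0% of all tested genes. In every alternative run 7 of the 15 calls held, those of MAFF, MAFK, BACH1, HMOX1, SLC48A1, GPX4 and TXNRD1. The other 8 were lost in at least 1 alternative: those of GCLC, TXN, PRDX1, PRDX6, TKT, ME1 and AKR1B1 with library totals alone, and that of ABCC2 (−0.40, SE 0.13, adjusted p = 0.0348) when siRNA A 1, siRNA A 2, siRNA B 1 or siRNA B 3 was left out (−0.38 to −0.28, adjusted p = 0.0878 to 0.129). The PRDX1 difference (0.49, adjusted p = 0.0334) was also lost when siRNA A 1, siRNA A 2 or siRNA B 2 was left out (0.33 to 0.48, adjusted p = 0.0784 to 0.112). That of ME1 (0.30, adjusted p = 0.036) was also lost with 2 groups per fit (0.30, adjusted p = 0.056). It was lost too when siRNA A 2, siRNA A 3, siRNA B 1 or siRNA B 3 was left out (0.25 to 0.30, adjusted p = 0.0821 to 0.106). The TXN difference (0.48, adjusted p = 0.0144) was also lost when siRNA A 2 was left out (0.42, adjusted p = 0.0517).

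Against control, 16 of the 24 calls with siRNA A held in every alternative run (NFE2L2, MAFF, SQSTM1, HMOX1, SLC48A1, FTL, FTH1, GCLC, GCLM, GSR, TXN, TXNRD1, PRDX1, TKT, NQO1 and ABCC3). With siRNA B 13 of 21 held (NFE2L2, MAFF, SQSTM1, HMOX1, BLVRB, FTL, FTH1, GCLM, GSR, TKT, NQO1, AKR1B10, which the filter at 5 CPM removed, and ABCC2). The main filter had kept AKR1B10 only through the siRNA B libraries. HMOX1, the ferritin chains, NFE2L2, MAFF, SQSTM1, GCLM, GSR, TKT and NQO1 stand in both lists. How many calls among all tested genes held in every run was not counted, either against control or between the siRNAs. Without siRNA B 2, calls were gained with siRNA B for MAFG (0.65, adjusted p = 0.0126), GSTP1 (0.44, adjusted p = 0.0496) and OSGIN1 (1.29, adjusted p = 0.00673), and with siRNA A for BLVRB (−0.35, adjusted p = 0.0324) and TALDO1 (0.25, adjusted p = 0.0356), where only the estimate of the spread changed. Without the same library, OSGIN1 was also lower with siRNA A than with siRNA B (−1.20, adjusted p = 0.0089). Without siRNA A 2, ABCC2 was higher with siRNA A (0.42, adjusted p = 0.0248).

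Other genes of the same pathways were counted from lists by function. Of 87 listed genes 79 were tested, of which 32 rose and 18 fell with siRNA A and 20 rose and 16 fell with siRNA B. The shares among all tested genes were 23.9% and 27.6% for siRNA A and 15.6% and 18.3% for siRNA B, and the counts of each list below stand beside these same shares. Their median log2 fold change was 0.19 and 0.11. Among 20 other NRF2 targets, 11 rose and 3 fell with siRNA A, and 5 rose and 5 fell with siRNA B. SLC7A11, the cystine importer that feeds glutathione synthesis, rose with both (log2 fold change 1.75, adjusted p = 6.36e-05 for A, and 0.94, adjusted p = 0.00574 for B). The lncRNA LUCAT1 rose by 0.98 and 1.25 and ALDH3A2, a fatty aldehyde dehydrogenase, by 0.95 and 0.62 on the log2 scale. PANX2, a pannexin, fell with siRNA A (−0.98, adjusted p = 0.00145) and also with siRNA B (−0.66, adjusted p = 0.0208), the latter lost when control 1, control 3 or siRNA B 2 was left out (−0.60 to −0.53, adjusted p = 0.0639 to 0.0744).

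Among 12 other regulators of the KEAP1 and NRF2 axis, 3 rose and 2 fell with each siRNA. RBX1, the RING subunit of the ligase that KEAP1 serves, rose (log2 fold change 1.10 for A and 0.90 for B), as did the coactivator EP300 (0.68 and 0.64, the former lost with library totals alone). PALB2, which can bind KEAP1, fell (−0.72 and −0.56). NFE2L3, a relative of NRF2, fell with siRNA B (−0.92, adjusted p = 4.17e-05) and did not pass with siRNA A (0.02, adjusted p = 0.877).

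Of the 7 genes of heme synthesis 2 were higher and 3 lower for siRNA A, and 2 higher and 2 lower for siRNA B. ALAS1, which makes the first and limiting step, rose (log2 fold change 0.91, adjusted p = 5.75e-04 for A, and 0.65, adjusted p = 0.00789 for B). FECH, which inserts the iron, fell with both (−0.69 and −0.55). ALAD, which makes porphobilinogen, fell with siRNA A (−0.68, adjusted p = 9.63e-04) and did not pass with siRNA B (−0.32, adjusted p = 0.0697). CPOX, the coproporphyrinogen oxidase, rose with siRNA A (0.61, adjusted p = 6.43e-04) and did not pass with siRNA B (0.26, adjusted p = 0.0779). Its call with siRNA A did not hold when scaled by library totals alone (0.24, adjusted p = 0.118). Among 7 genes of heme transport and turnover, 4 rose and 1 fell with siRNA A, and 2 rose and 2 fell with siRNA B. FLVCR1, listed as a heme exporter, rose with both (1.04 and 0.75), as did PGRMC1, a heme-binding membrane protein (0.82 and 0.73). PGRMC2 rose with siRNA A (0.67, adjusted p = 8.31e-05) and did not pass with siRNA B (0.11, adjusted p = 0.368). HMOX2, the constitutive heme oxygenase, fell with siRNA B (−0.57, adjusted p = 0.00361) and with siRNA A (−0.31, adjusted p = 0.0463). The HMOX2 call with siRNA A was lost with DESeq2 size factors (−0.28, adjusted p = 0.0619) and with DESeq2 on the recovered reads (−0.28, adjusted p = 0.0557). It was also lost when control 1, control 3, siRNA A 2, siRNA A 3 or siRNA B 1 was left out (−0.31 to −0.24, adjusted p = 0.0638 to 0.149).

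Among 11 genes of iron uptake, storage and sensing, 5 rose and 3 fell with siRNA A, and 1 rose and 2 fell with siRNA B. FBXL5, the iron sensor that degrades iron regulatory proteins, fell with both (log2 fold change −0.72 and −0.41). TFRC, the transferrin receptor, rose with siRNA A (0.75, adjusted p = 0.00188) and did not pass with siRNA B (0.25, adjusted p = 0.237). PCBP1, a chaperone that loads ferritin, rose with siRNA A (0.97, adjusted p = 2.02e-04) and did not pass with siRNA B (0.27, adjusted p = 0.159). SLC39A14, a metal importer, fell with siRNA B (−0.85, adjusted p = 2.50e-04) and did not pass with siRNA A (0.25, adjusted p = 0.0883).

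Of 11 further glutathione and peroxidase genes, 2 rose and 3 fell with siRNA A, and 1 rose and 2 fell with siRNA B. CHAC1, which degrades glutathione, rose with siRNA A (1.60, adjusted p = 4.92e-04) and did not pass with siRNA B (0.37, adjusted p = 0.316). OPLAH, which returns oxoproline to glutamate, rose with both (0.62 and 0.58, the former lost with library totals alone). The transferases GSTZ1 and GSTK1 fell with both. The log2 fold changes were −1.21 and −0.50 for GSTZ1. The latter was lost when control 1, control 2, control 3, siRNA A 3, siRNA B 1, siRNA B 2 or siRNA B 3 was left out (−0.58 to −0.37, adjusted p = 0.0573 to 0.138). It was also lost with a pseudocount of 0.1 (−0.54, adjusted p = 0.0566) and with no filter (−0.50, adjusted p = 0.0622). For GSTK1 the log2 fold changes were −0.43 and −0.39, the former lost when siRNA A 3 was left out (−0.35, adjusted p = 0.052). The latter was lost when control 1, control 2, siRNA B 1 or siRNA B 2 was left out (−0.40 to −0.31, adjusted p = 0.0622 to 0.0915). Of 11 further thioredoxin and superoxide genes, 5 rose and 3 fell with siRNA A, and 6 rose and 1 fell with siRNA B. SESN2, a stress-induced sestrin, rose with both (1.14, adjusted p = 0.00104 for A, and 1.24, adjusted p = 0.00116 for B), while SESN1 rose with siRNA B (1.07, adjusted p = 1.60e-04) and did not pass with siRNA A (−0.10, adjusted p = 0.581). TXNL1, a thioredoxin-like protein, rose with both (0.75 and 0.60), as did the endoplasmic reticulum peroxiredoxin PRDX4 (0.71 and 0.33). The PRDX4 call with siRNA B did not hold with library totals alone (0.12, adjusted p = 0.454) or when control 2, control 3, siRNA A 1, siRNA B 1 or siRNA B 3 was left out (0.28 to 0.33, adjusted p = 0.0555 to 0.134).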

How the data were processed

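The authors deposited CPM, gene reads scaled to a common library total, for 15354 genes in 9 libraries. Per the labels, TopHat2 and HTSeq were used with GRCh37 (hg19). The annotation and the strand setting are not given in the sources used here, so overlapping and antisense genes cannot be separated. Among the genes described, NFE2L2, MAFG, MAFF, MAFK, FTH1, GCLC, SLC48A1, SQSTM1, TXNRD1, PRDX1, PRDX6, NQO1, OSGIN1, CBR1, GPX2, EID3, SLC7A11, LUCAT1, NFE2L3, EP300, HMOX2, FBXL5, PCBP1, OPLAH, GSTK1, TXNL1 and the markers KRT8, KRT18, CDH1, COL1A1 and CD68 overlap another gene with a row. From the steps of the deposited CPM, whole reads were recovered for 100% of the values, within 0.01 read.

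Identifiers were matched to GENCODE names on GRCh37 (14871 of 15354). Genes with at least 1 CPM in 3 libraries (13893) were tested with limma 3.58.1 in R 4.3.3, with an empirical Bayes trend, on log2(TMM-scaled CPM + 1). All 9 libraries entered 1 fit with a mean per group, and p-values were adjusted by Benjamini and Hochberg over all tested genes. The design had been written for either unit, and the CPM form was used. Alternatives were other scalings (library totals alone, DESeq2 1.42.0 size factors), a pseudocount of 0.1, no filter or 5 CPM, a replicate block, 2 groups per fit, edgeR 4.0.16 and DESeq2 on the recovered reads, and leaving out each library. On the recovered reads edgeR called 22 of the 34 genes higher and 2 lower with siRNA A and 19 and 2 with siRNA B, and of all tested genes 3335 and 3825 with siRNA A and 2221 and 2559 with siRNA B. Libraries of a group differed by more than sampling noise (chi-square per degree of freedom at least 13.0), so none was merged.

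Same-numbered control and siRNA A libraries deviated together (r = 0.646, 0.411 and 0.130 across genes), the last close to control 3 with siRNA A 2 (0.094). The main fit and its calls did not use these pairs, and the replicate block was run as an alternative. With the replicate block, 25 of the 34 genes were higher and 3 lower with siRNA A, beside 27.5% and 30.8% of all tested genes.

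The 40 genes, the other lists and the element were chosen with earlier results of these data known. Values in every library are given for HMOX1, NFE2L2, KEAP1, BACH1, NQO1, TXNRD1, GCLM, GCLC, FTL, FTH1, OSGIN1, ME1 and SQSTM1 whatever they show, and for called members that changed at least 2-fold. Those of BLVRB and AKR1B10 were added after their values were seen. From each other list up to 4 called genes with the largest change are named. Intervals and read floors cover counting error or library spread only, since reads carried no molecular identifiers. One listed pathway gene is not reported here. Tests were tried on simulated data in which a small set of genes changed, in siRNA A alone and equally in both directions. That setting cannot probe the choice of scaling.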

Additional observations from a re-analysis of the deposited data

How the results depend on the processing

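Scaling was the choice that moved the results most. With library totals alone, 14 of the 34 genes were higher and 7 lower with siRNA A, and 12 and 6 with siRNA B. With A set against B, 4 were higher and 6 lower. Of all tested genes, 9.05% were then higher and 47.0% lower with siRNA A, and 6.90% and 29.7% with siRNA B. Between the siRNAs these shares were 10.2% and 27.0%. The median log2 fold changes of the 34 genes were then 0.22, 0.24 and −0.038. Over all tested genes they were −0.34, −0.18 and −0.15. The share of rises among all called genes went from 46.4% to 16.1% for siRNA A, from 46.0% to 18.8% for siRNA B and from 47.6% to 27.4% between the siRNAs. These shifts follow from the TMM factors, which lie above 1 in the control libraries and below 1 in the siRNA A libraries. Signs turned with library totals alone for values that had not passed the test: with siRNA A for MAFG (−0.037), BACH1 (−0.10), TALDO1 (−0.11), ABCC2 (−0.061) and OSGIN1 (−0.26), and with siRNA B for KEAP1 (−0.023), SLC48A1 (−0.11) and PRDX6 (−0.021).

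TXNRD1 with siRNA B turned sign with DESeq2 size factors (0.0025), with DESeq2 on the recovered reads (0.0019) and without 3 of the single libraries, over all of which it ran from −0.078 to 0.059. CAT with siRNA B turned with DESeq2 on the recovered reads (0.0031) and without 4 of the single libraries (range over all 9 −0.21 to 0.11), and OSGIN1 with siRNA A without 2 of them (range −0.18 to 0.34). For these 3 the main values were close to 0 or had wide intervals, and the cause was not tested. With 2 groups per fit, 1 of the 34 genes was lower with siRNA B, and leaving out single libraries gave 1 to 2, since the BACH1 call was lost. Of all tested genes, 17.5% were lower with siRNA B in the former and 14.2% to 19.0% in the latter. The SNHG5 difference between the siRNAs was 0.31 (adjusted p = 0.0938) with library totals alone and 0.40 to 0.54 when a library was left out, with the call lost without siRNA A replicate 1 or 3 or siRNA B replicate 1.

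Leaving out single libraries gave 19 to 23 of the 34 genes higher with siRNA A, beside 20.2% to 25.9% of all tested genes. With siRNA B it gave 15 to 21, beside 11.0% to 16.5%, and between the siRNAs 8 to 11, beside 13.9% to 17.7%. The replicate block raised the counts to 25 higher and 3 lower with siRNA A, 21 and 3 with siRNA B, and 13 and 6 between the siRNAs, and those of all tested genes as well, to 27.5% higher and 30.8% lower, 19.9% and 21.8%, and 21.5% and 23.3%. For siRNA B against control the numbers did not pair throughout (r = 0.173, 0.445 and −0.386), nor did they between the siRNAs (0.204, 0.442 and 0.019). Control 1 and siRNA A 1 went more closely with siRNA B 3 (0.679 and 0.594) than with siRNA B 1. The replicate 2 libraries deviated together in each pair of groups (0.411 for control and siRNA A). With the block MAFG, PGD, TALDO1 and ABCC2 gained a call with siRNA A, MAFG, PGD and OSGIN1 with siRNA B, and GCLM and OSGIN1 between the siRNAs, and among the values given the block ended no call. AKR1B10 had 6 to 37 reads per library and the 5 untested genes 0 to 10, too few to compare the latter.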

Other observations

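Replicate 2 held the lowest TMM-scaled value for 26 of the 34 genes among the siRNA B libraries (76.5%), beside 42.8% of all tested genes. In control this was so for 19 of 34 (55.9%, beside 34.4%), and among the siRNA A libraries for 12 of 34 (35.3%, beside 36.3%). In that group replicate 3 was lowest for 18 of 34 (52.9%, beside 30.8%). Whether this pattern had a part in the results was not tested.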
